A study of Sorghum bicolor with 8 samples.

Results

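A group of 5 genes of the secondary cell wall and its control was followed in sorghum prop roots: 3 cellulose synthases (Sobic.003G296400, Sobic.001G224300 and Sobic.002G205500), the regulator MYB60 (Sobic.004G273800) and the NAC gene of the D, or dry stalk, locus (Sobic.006G147400). The members are these 5 named genes out of 34129 in the deposited table, and all 5 were found there. Their names and roles come from the published knowledge by which they were listed. The deposited table pairs identifiers with no gene names, so neither these names nor the labelled tissue could be checked against annotated marker genes. The tissue was green prop root, which emerges above ground at the base of the stalk, taken from the Sorghum bicolor cultivar BRS330. Both groups were watered with 1.5 L a day for the first 60 days. Irrigation was then cut by 70%, to 0.45 L a day, and this water deficit lasted 30 days. The ambient group stood in air of 400 µmol per mol CO2 and the elevated group in 800 µmol per mol, with 4 libraries each. No well-watered group is among the samples, so every value below belongs to plants short of water, and nothing in the labels tells if each library stands for another plant.

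Secondary walls are the thick layers that xylem vessels and fibre cells lay down after they stop growing. Cellulose in these layers is made at the plasma membrane by a complex of a distinct set of cellulose synthases, which need each other to form a working complex and are usually expressed together, while other members of the family serve the primary wall of growing cells. NAC and MYB transcription factors stand above the enzymes in a cascade that turns on the genes for cellulose, xylan and lignin. In sorghum, MYB60 is known for activating genes of monolignol synthesis, the route to lignin, when overexpressed. The D locus decides whether the sorghum stalk is dry and pithy or juicy, and its NAC gene is known to promote death of the pith parenchyma in the stem.

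Of the 5 genes, 4 were barely expressed in these roots, whereas the D-locus NAC gene was well expressed and rose under elevated CO2. The level unit is FPKM, a fragment count corrected for transcript length and for the size of the library, which allows genes of different length to be compared. The authors deposited 1 pooled FPKM per group, so each value below stands without an SD, and read depth is unknown. The D-locus gene went from 23.8 to 45.2 FPKM and passed the authors' test. All 3 cellulose synthases and MYB60 lay between 0.709 and 1.87 FPKM in both groups, and each had its lower value under elevated CO2. None of these 4 was tested by the authors, so none of their differences is called a change.

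**Figure D1:**
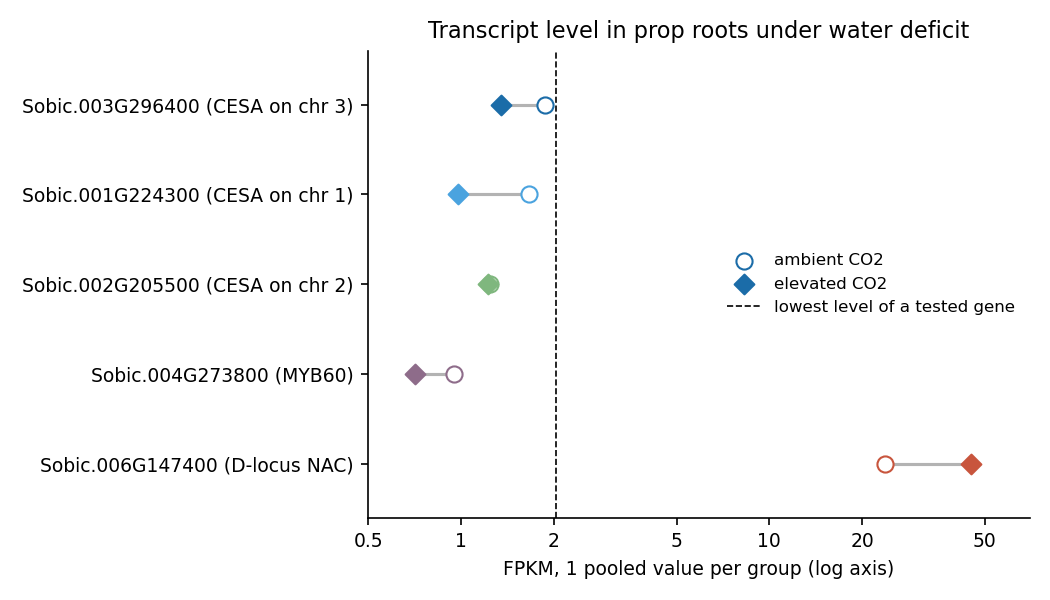
Pooled FPKM of each wall gene (log axis) in ambient CO2 (open circles) and elevated CO2 (filled diamonds), 1 value per group and no error bar. The dashed line marks 2.03 FPKM, the lowest level of any tested gene in its higher group. Only the D-locus NAC gene lies to its right, at 23.8 and 45.2 FPKM.

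Among the enzymes, Sobic.003G296400 had the highest level of the 3 cellulose synthases in both groups, with 1.87 FPKM in ambient air and 1.35 FPKM in elevated CO2. The locus lies on chromosome 3 from 62851273 to 62857742, in the coordinates of the deposited table. Its log2 ratio of elevated over ambient was -0.47, an ambient value 1.39 times the elevated one. Sobic.001G224300, on chromosome 1 from 21485581 to 21489706, had 1.66 FPKM in ambient air and 0.979 FPKM in elevated CO2. This was the widest relative difference among the 5 genes apart from the D-locus gene, 1.69 times in favour of ambient CO2 (log2 ratio -0.76). Sobic.002G205500, on chromosome 2 from 59706938 to 59711587, was nearly level at 1.24 FPKM in ambient air and 1.22 FPKM in elevated CO2 (log2 ratio -0.02). Its sign turns with the scaling: centred on the median of all tested genes the log2 ratio was 0.006, and with both groups set to a common sum of FPKM it was 0.15.

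The order of the 3 cellulose synthases was not the same in the pooled values of both groups. In ambient CO2 it ran from Sobic.003G296400 over Sobic.001G224300 to Sobic.002G205500, and the highest was 1.50 times the lowest. Under elevated CO2 Sobic.002G205500 stood above Sobic.001G224300, and the highest was 1.38 times the lowest. With no spread between libraries at hand, whether any of these neighbours in the order differ cannot be said. The 3 together came to 4.77 FPKM in ambient air and 3.55 FPKM in elevated CO2 (log2 ratio -0.43).

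Within the whole table these enzymes sat at the middle of the list of genes by level. That list includes many genes at or near 0, and 22995 of the 34129 had a defined ratio and a mean of at least 0.1 FPKM. The middle of the whole list is therefore not the middle of the expressed genes. Sobic.003G296400 ranked 16363 of 34129 genes in ambient and 16990 in elevated CO2. Sobic.001G224300 ranked 16736 and 17888, and Sobic.002G205500 ranked 17579 and 17272. Close to as many genes of the table lay below them as above: in ambient CO2 52.1% were below Sobic.003G296400 and 48.5% below Sobic.002G205500.

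The ratios of the cellulose synthases were of a size that many genes at this level showed. As a yardstick, each was set beside all other genes with a defined ratio whose mean FPKM lay within 1.5-fold of its own; this describes the table and is no test. Around Sobic.001G224300 there were 2402 such genes, with a median log2 ratio of -0.08 and quartiles of -0.57 and 0.31. A wider log2 ratio in either direction was shown by 703 of them (29.3%). Around Sobic.003G296400, 1109 of 2469 genes (44.9%) had a wider one, and around Sobic.002G205500 it was 2315 of 2381 (97.2%). Lower values under elevated CO2 were common at this level in general, at 54.2%, 56.1% and 56.3% of the genes around Sobic.003G296400, Sobic.001G224300 and Sobic.002G205500.

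**Figure D2:**
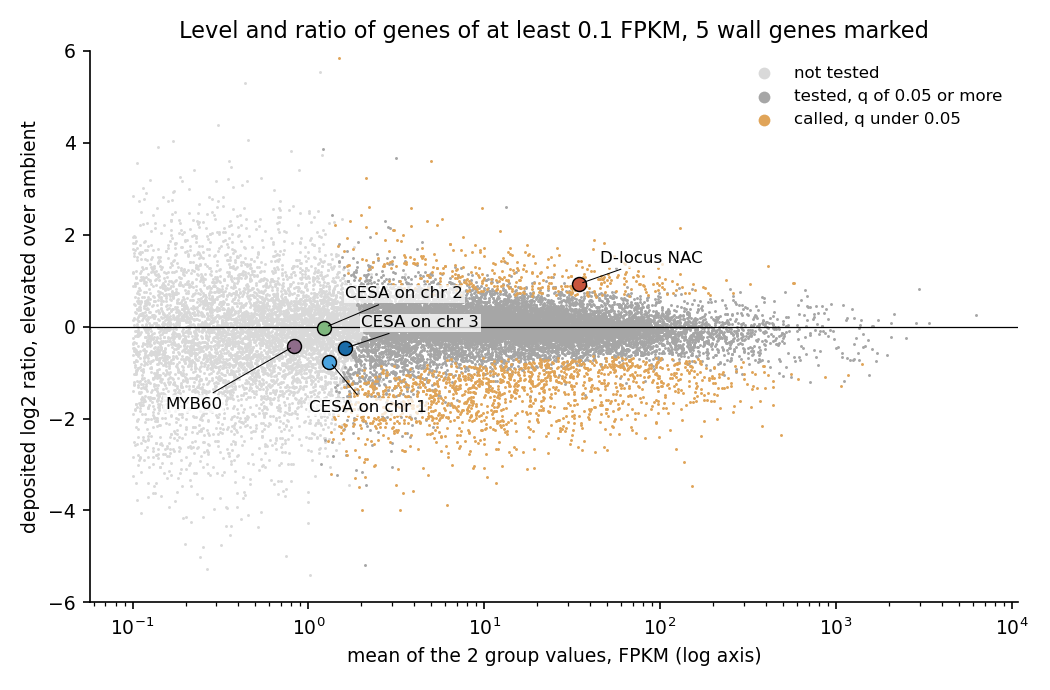
Deposited log2 ratio of elevated over ambient CO2 against the mean of both pooled FPKM values (log axis) for the 22995 genes with a mean of at least 0.1 FPKM and a defined ratio, coloured by the authors' test; 6 genes with a log2 ratio beyond 6 in size lie outside the frame. The 4 low wall genes sit inside a broad cloud of mostly untested genes. The D-locus NAC gene lies at the upper edge of its level, at a log2 ratio of 0.93.

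Turning to the regulators, MYB60 (Sobic.004G273800, chromosome 4 from 61765783 to 61767930) had the lowest level of the 5 genes, 0.950 FPKM in ambient air and 0.709 FPKM in elevated CO2. The deposited log2 ratio was -0.42, an ambient value 1.34 times the elevated one. Of 2171 other genes within 1.5-fold of its mean level, 1191 (54.9%) had a wider ratio, and their quartiles were -0.69 and 0.33. MYB60 ranked 18393 of 34129 genes in ambient and 18775 in elevated CO2.

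The NAC gene of the D locus stood far above the other members. Sobic.006G147400 (chromosome 6 from 50896168 to 50898604) rose from 23.8 to 45.2 FPKM in the authors' deposited table, a difference of 21.4 FPKM or 1.90-fold (log2 ratio 0.93, p = 0.0014, q = 0.0169). In whole tissue, a different number of cells that express a gene and a different amount of its RNA in each such cell cannot be told apart. Its rank moved from 5271 to 2652 of 34129 genes, which leaves 84.6% of all genes below it in ambient and 92.2% in elevated CO2. In ambient CO2 its level was 4.98 times that of the 3 cellulose synthases summed, and under elevated CO2 12.7 times. Against Sobic.001G224300 alone the ratio of levels went from 14.3 to 46.2. These ratios compare pooled values per length, and the difference between genes in their response to CO2 was not tested.

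A rise of this kind was uncommon in the table. Over all genes of the authors' deposited table, 11.5% of the 16280 tested genes were called at q under 0.05, 2.42% as higher and 9.04% as lower under elevated CO2. Of the 5 wall genes 1 was tested, and that gene was called as higher; a count of 1 gene cannot be read against these shares. Among 2907 other genes within 1.5-fold of its mean level, 2906 were tested, 84 rose and 239 fell. Their median log2 ratio was -0.05 with quartiles of -0.27 and 0.15, and 98.4% of them had a lower ratio than the D-locus gene.

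Among the 394 genes that rose, the D-locus gene was moderate in its ratio and on the high side in its level. Called rises had a median log2 ratio of 1.07, and 265 of the 392 with a defined ratio exceeded that of the D-locus gene. In level under elevated CO2 it ranked 112 among the 394, whose median was 20.5 FPKM. Its q was not among the smallest: 1337 of the 1865 called genes (71.7%) had a smaller one in the authors' deposited table. Of the 243 tested genes with a log2 ratio within 0.1 of its own, 111 (45.7%) were called. The rise did not pass at q under 0.01, a limit that 7.12% of tested genes passed. The deposited log2 ratio also fell short of 1 in size, a limit that together with q under 0.05 was met by 8.51% of tested genes. Under either stricter limit 0 of the 5 wall genes are called.

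The 4 low genes share their untested status with every gene whose value in the higher group is as low. No gene under 2.03 FPKM in its higher group was tested in the deposited table. The windows of like mean level used above are cut by another measure and do hold tested genes. These were 812 of 2469 around Sobic.003G296400, 252 of 2402 around Sobic.001G224300, 165 of 2381 around Sobic.002G205500 and 2 of 2171 around MYB60. In the class from 1.5 to 2 FPKM, which holds Sobic.003G296400 and Sobic.001G224300, 0 of 853 genes were tested. From 1 to 1.5 FPKM, the class of Sobic.002G205500, it was 0 of 1209, and from 0.5 to 1 FPKM, the class of MYB60, 0 of 1778. In the next class up, from 2 to 2.5 FPKM, 426 of 739 genes were tested (57.6%), and from 2.5 to 3 FPKM 588 of 600. A p-value and a q-value of 1 stand in the table for these untested genes, and they are no evidence that a gene did not respond.

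**Figure D3:**
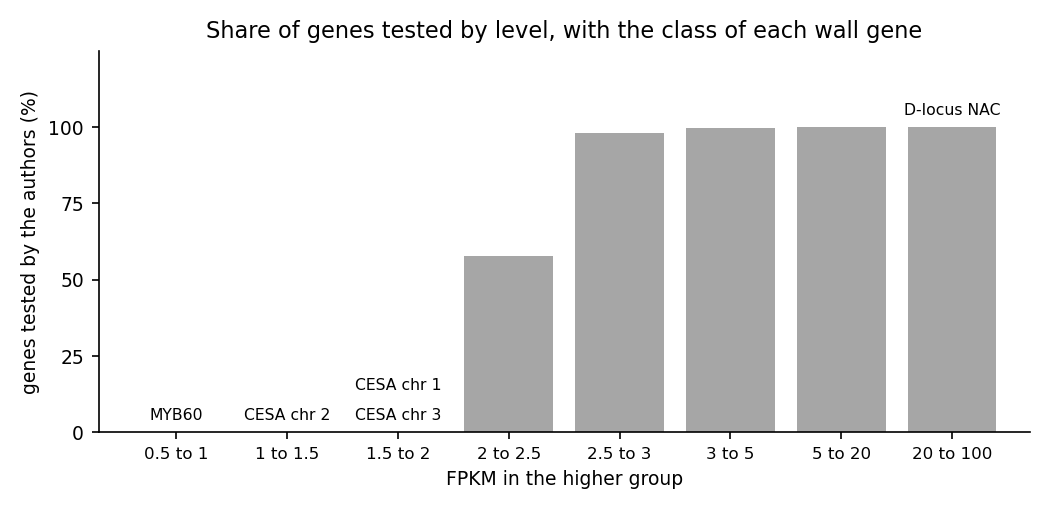
Share of genes tested by the authors (bars, percent) in classes of FPKM in the higher group, with the class of each wall gene written above it. The bars are at 0 up to 2 FPKM, where the cellulose synthases (CESA) and MYB60 lie, and reach 57.6% in the class from 2 to 2.5 FPKM.

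Genes beside the wall genes on the chromosome were examined for a shared direction. Of the 50 annotated genes that lie within 5 places of a wall gene in the order of the deposited loci, 27 were tested by the authors, 6 fell and 0 rose. Over all tested genes 9.04% fell and 2.42% rose; the neighbours were counted after the data had been seen, and their count was not tested against these shares. None of the 5 wall genes overlaps the locus of another gene. The cellulose synthase gene on chromosome 3 had 2 falling genes among its 10 neighbours, of which 6 were tested. MYB60 also had 2, with 7 tested. The genes on chromosomes 1 and 2 had 1 each, with 5 and 3 tested, and the D-locus gene had none, with 6 tested.

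The closest neighbours of the cellulose synthases were a mixed set, whose functions the deposited table does not give. Sobic.001G224300 lies between a pair of abundant genes. Sobic.001G224200 went from 103 to 94.7 FPKM (q = 0.912 in the authors' deposited table), and Sobic.001G224400, which starts 647 bp beyond its end, from 94.7 to 75.1 FPKM (q = 0.457 in the same table). Neither passed the test. Beside Sobic.002G205500, Sobic.002G205300 fell from 43.4 to 24.3 FPKM (log2 ratio -0.84, q = 0.0201 in the authors' deposited table), at a distance of 46325 bp. On the other side and only 332 bp away, Sobic.002G205600 was listed at 4.08 and 2.04 FPKM and just missed the threshold with q = 0.0501 in the authors' deposited table. Sobic.003G296300, next to Sobic.003G296400, went from 87.4 to 67.9 FPKM without passing (q = 0.434 in the authors' deposited table), and the gene on the other side, Sobic.003G296500, was listed at 0.110 FPKM in ambient air and at 0 in elevated CO2.

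Next to MYB60, at a distance of 27100 bp, lies a deposited locus that 3 annotated genes share. Of these, Sobic.004G273600, the adjacent gene in the order used, was near 0 in both groups (0.117 and 0.114 FPKM). Sobic.004G273500 fell from 11.1 to 5.01 FPKM (log2 ratio -1.14, q = 0.00365 in the authors' deposited table), and Sobic.004G273550 went from 3.22 to 3.38 FPKM without passing. Sobic.004G273900, on the other side, was listed at 4.11 and 1.59 FPKM (log2 ratio -1.37) and did not pass, with q = 0.0567 in the authors' deposited table. The genes on either side of the D-locus gene were almost silent. Sobic.006G147350 was listed at 0 and 0.0571 FPKM, and Sobic.006G147450 at 0.0110 and 0.0205 FPKM. The rise of the D-locus gene was therefore not shared by a called neighbour within 5 genes on either side. The nearest well-expressed one, Sobic.006G147300, had its higher value in the elevated group too, 35.1 against 21.9 FPKM, but did not pass (log2 ratio 0.68, q = 0.0729 in the authors' deposited table). It was singled out after its values were seen.

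**Figure D4:**
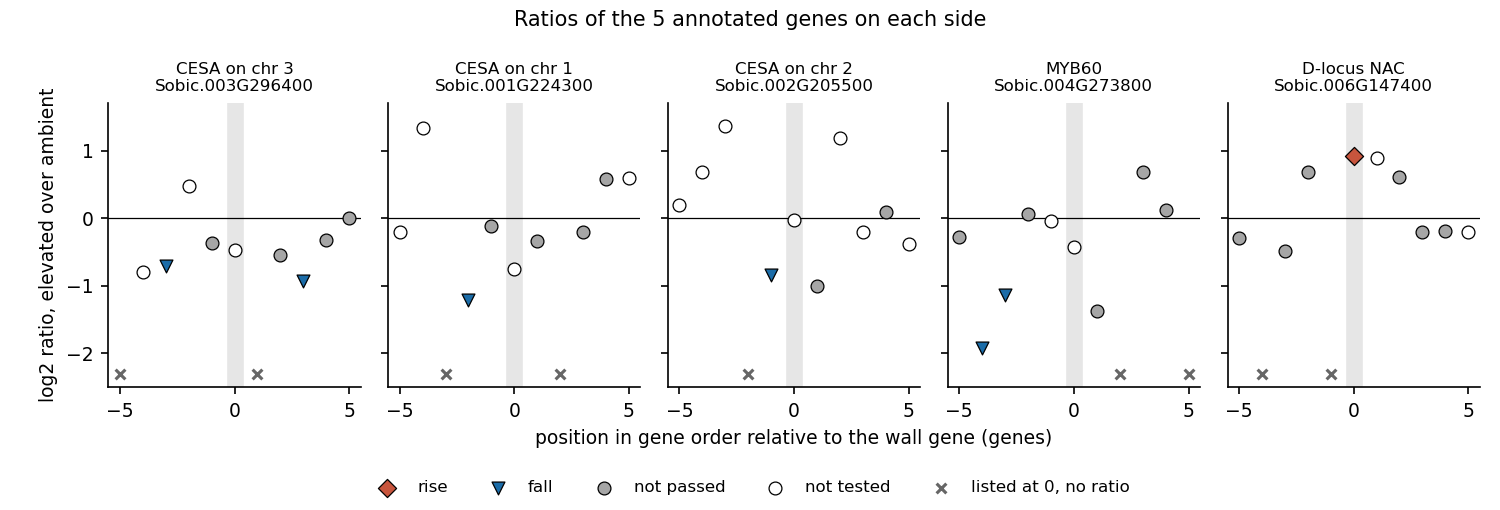
Deposited log2 ratio of elevated over ambient CO2 for each wall gene (position 0, grey band) and the 5 annotated genes on either side, in gene order; symbols give the outcome of the authors' test, and crosses at the bottom mark genes listed at 0 in at least 1 group. Called falls appear near each of the 3 cellulose synthases and near MYB60, and none near the D-locus NAC gene, which is the single called rise. Each wall gene had only 3 to 7 tested neighbours, and over all tested genes 9.04% fell and 2.42% rose. The difference between the loci was not tested.

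Genes with the most similar pair of values were also sought, as the shortest distance between log2 FPKM in both groups among tested genes, over 2 pooled values. For the D-locus gene these were Sobic.007G110200, at 23.6 and 47.0 FPKM (distance 0.0580), and Sobic.002G368000, at 24.8 and 46.0 FPKM (distance 0.0642). Both rose in the authors' deposited table, with q of 0.00202 and 0.00284. For Sobic.003G296400 they were Sobic.010G276000 (2.13 and 1.39 FPKM, distance 0.190) and Sobic.009G149000 (2.18 and 1.39 FPKM, distance 0.226), neither of which passed. The closest tested genes of Sobic.001G224300 were Sobic.003G232400 (2.10 and 1.06 FPKM, distance 0.361) and Sobic.004G031501 (2.07 and 0.852 FPKM, distance 0.378). Those of Sobic.002G205500 were Sobic.006G205800 (distance 0.768) and again Sobic.003G232400 (distance 0.784). Those of MYB60 were Sobic.006G129800 (distance 1.11) and Sobic.008G180300 (distance 1.14). The distances grow as the wall gene lies further below the level at which testing starts, so for the 3 last genes these are poor matches. A match over 2 values says that levels are alike and nothing more.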

How the data were processed

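RNA was extracted from 100 mg of ground tissue per library and sequenced after TruSeq Stranded mRNA preparation, per the labels' protocols. Tools listed in the submitters' processing notes, without settings, are Cuffdiff, Cufflinks 2.2.1, HISAT2 and Trimmomatic 0.36. No genome build is named there or in the file headers. The authors deposited FPKM values, 1 per gene and group, pooled over 4 libraries each. They also deposited the log2 ratio, a test statistic (a score), a p-value and a q-value per gene. Deposited log2 ratios differed from recomputed ones by at most 2.71e-05, and q-values from a Benjamini-Hochberg adjustment of the 16280 p-values of tested genes by at most 5.25e-07. All FPKM values added up to 652743 for ambient and 579715 for elevated CO2. A gene was called at a deposited q under 0.05. No column holds single libraries, so no SD, depth or test of another design is given. Subsets of the table served only to look up members.

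Computations used Python 3.11.15 and pandas 2.3.3; the adjustment was tested on simulated p-values. The members and rules were chosen with earlier results of these data known. Named by rule were the 5 members, the nearest annotated gene on each side, and the 2 tested genes nearest in level. Named outside this rule were Sobic.004G273500 and Sobic.004G273550, which share the locus next to MYB60, and Sobic.006G147300. The windows of like level and of 5 neighbours each side were added after the data had been seen. A planned list of related genes and a motif search needed sequences that were not at hand; 0 identifiers matched the 32945 genes of the RefSeq table (assembly Sorghum_bicolor_NCBIv3). Whether deposited starts count from 0 or 1 is not given. Alternatives were stricter limits, adjustment over genes of at least 1 or 5 FPKM, pseudocounts of 0.1 and 1 FPKM, centring and a common sum.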

Additional observations from a re-analysis of the deposited data

How the results depend on the processing

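The call of the D-locus gene Sobic.006G147400 held when the adjustment was redone over tested genes of at least 1 FPKM (q = 0.0169) or 5 FPKM (q = 0.0153). The first of these removed no gene. At q under 0.01, or with an absolute deposited log2 ratio of at least 1, the number of wall genes called fell from 1 to 0. The log2 ratio of the D-locus gene stayed between 0.90 and 1.10 in all settings run. The value of 1.10 came with a common sum of FPKM and lies above the limit of 1. A common sum raises every log2 ratio by 0.171, and gave -0.30 for Sobic.003G296400, -0.59 for Sobic.001G224300, 0.15 for Sobic.002G205500 and -0.25 for MYB60 (Sobic.004G273800). A pseudocount of 1 FPKM gave -0.29 for Sobic.003G296400, -0.43 for Sobic.001G224300 and -0.19 for MYB60, which follows from adding 1 to values near 1. Sobic.002G205500 changed sign when centred on the median of all tested genes (0.006) or on genes of like level (0.06, chosen after seeing the data), where MYB60 gave -0.31. A move was counted when it exceeded 0.1 or crossed 0. The pseudocount of 0.1 FPKM moved no gene by that much. No paired analysis was possible because libraries of a group are merged into 1 value in the deposited table, although their titles are numbered alike in both groups. No library could be left out, and other limits for related genes were not run, as no list could be made. Depth is unknown; the authors' testing limit kept 4 of the 5 genes without a test.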

Other observations

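The deposited test statistic of the D-locus gene Sobic.006G147400 was 1.16 beside its p of 0.0014 in the authors' deposited table. Of the 324 tested genes whose statistic was within 5% of that size (1.10 to 1.22), 292 were called, and their p-values had a median of 0.00163 with quartiles of 0.001 and 0.00251. The p of the D-locus gene thus lies in the middle of those of genes with a like statistic, and 131 of the 324 had a smaller one. The labels and file headers do not say how the authors turned the statistic into a p-value.

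Limiting the genes of like level to those with a locus span also within 2-fold moved the share with a wider log2 ratio both ways. Around Sobic.001G224300 it was 341 of 1474 such genes (23.1%, against 29.3% without the limit on span). Around Sobic.003G296400 it was 455 of 1206 (37.7%, against 44.9%), and around Sobic.002G205500 1349 of 1390 (97.1%, against 97.2%). Around MYB60 (Sobic.004G273800) it was 708 of 1196 (59.2%, against 54.9%). Of 1500 such genes around the D-locus gene, all of them tested, 54 rose and 149 fell, and 98.3% had a lower ratio than it did.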
